A study of Rattus norvegicus with 6 samples.

Results

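This report describes 49 genes of mitosis, the kinetochore and condensin in NRK-52E cells, an established line of epithelial cells from rat kidney, after treatment with streptozotocin (STZ), a nitrosourea that alkylates DNA. The genes were chosen by symbol, leaving out cyclins, Polo-like kinases and kinesins other than Cenpe. All 49 were among the 18930 rows of the deposited table, each in 1 row. The groups were 3 Control samples, which the paper describes as vehicle-treated, and 3 STZ samples kept in 10 mM of STZ for 24 h, all of wild-type genotype. Libraries of mRNA were sequenced, and total counts lay between 10430924 and 15191349 per sample. No label says whether the samples of a group were separate cultures, so the p-values measure only the spread between these samples. Several markers of the labelled cell type had few or no counts. Of the epithelial markers, Krt8 had at least 11691 counts in every sample, Cdh1 had 16 to 35, Krt18 and Cdh16 had at most 4, and Krt19, Epcam and Ocln were not listed. Of the proximal tubule markers, Lrp2, Cubn, Slc34a1, Slc5a2, Slc2a2 and Havcr1 had at most 10 counts in any sample, and Aqp1 had 66 to 167. Which gene models were used for counting is not stated, and the cause of the low counts was not tested. Summed over each marker list, epithelial markers had 1104 to 1179 CPM (counts of a gene per 1000000 counts of its library, scaled by edgeR's TMM method) in Control and 1597 to 1613 in STZ, proximal tubule markers 9.89 to 16.7 in Control and 5.73 to 6.83 in STZ, and fibroblast markers 99.5 to 111 in Control and 56.1 to 66.7 in STZ. Nearly all of the epithelial sum was Krt8, which had a mean of 1149 CPM in Control and 1604 in STZ, while Cdh1 had 2.58 and 1.64 CPM, a log2 fold change of -0.69 (adjusted p = 0.030 by edgeR's quasi-likelihood test). Most of the proximal tubule sum was Aqp1, with a log2 fold change of -1.25 (adjusted p = 9.4e-09). The fibroblast sum came from Col1a1, Col3a1 and Pdgfrb, while Col1a2, Lum and Pdgfra had at most 4 counts and Dcn was not listed. Of the endothelial markers, Pecam1 and Cdh5 had at most 2 counts in any sample, and Tek had 3 to 7. Kdr had 0 to 2 counts in Control and 6 to 9 in STZ. Of the leukocyte markers, Ptprc, Adgre1, Cd3e and Cd79a had at most 4 counts in any sample. Cd68 had 7 to 29, with a log2 fold change of 0.40 (adjusted p = 0.28 by the same test). The part of these shifts in the results below was not tested.

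Cells enter mitosis when Cdk1 is switched on by Cdc25 phosphatases. Condensin then compacts the chromosomes, kinetochores built on centromeres containing the histone variant Cenpa bind spindle microtubules, and the spindle assembly checkpoint holds back anaphase until every kinetochore is attached. When the checkpoint is satisfied, Cdc20 and the anaphase-promoting complex mark securin and cyclin B for destruction, separase cuts cohesin, and a contractile ring divides the cell. Many of these genes are transcribed mainly in G2 and mitosis, through CHR promoter elements bound by MuvB complexes and through CCAAT boxes bound by NF-Y.

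The promoters of the 3 largest falls and the 2 largest rises among the genes with a promoter in the RefSeq table, and of Cdk1, are shown for these elements. Racgap1 and Zwilch, with the second largest fall and rise, had no entry. They are taken from RefSeq on the GRCr8 build, which is not the build used for counting, and run from 250 bases before the annotated start to 50 bases after the start. The order is Mki67 at chr1:199952544-199952843 on the minus strand, Bub1b at chr3:126016817-126017116 on the plus strand, Smc4 at chr2:155550012-155550311 on the plus strand, Cdc25c at chr18:26630243-26630542 on the minus strand, Anln at chr8:29197464-29197763 on the minus strand and Cdk1 at chr20:19265043-19265342 on the plus strand. Mki67, Bub1b and Smc4 were lower with STZ, Cdc25c and Anln were higher, and Cdk1 did not pass the test. Capitals mark the CHR letters TTTGAA or TTCGAA and the box letters CCAAT, on either strand, so that TTCAAA and ATTGG are the same elements read from the other strand.
Mki67: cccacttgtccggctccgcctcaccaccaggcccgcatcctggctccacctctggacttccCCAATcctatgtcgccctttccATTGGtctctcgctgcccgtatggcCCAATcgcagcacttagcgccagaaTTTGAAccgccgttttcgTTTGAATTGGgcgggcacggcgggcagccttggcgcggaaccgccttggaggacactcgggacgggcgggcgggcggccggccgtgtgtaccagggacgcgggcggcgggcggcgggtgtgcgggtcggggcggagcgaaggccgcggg
Bub1b: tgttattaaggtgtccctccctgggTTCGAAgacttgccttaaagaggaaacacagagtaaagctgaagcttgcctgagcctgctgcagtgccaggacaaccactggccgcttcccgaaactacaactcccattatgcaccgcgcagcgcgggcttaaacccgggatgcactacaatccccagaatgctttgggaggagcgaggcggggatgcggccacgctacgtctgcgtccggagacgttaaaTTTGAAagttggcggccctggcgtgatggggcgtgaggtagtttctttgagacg
Smc4: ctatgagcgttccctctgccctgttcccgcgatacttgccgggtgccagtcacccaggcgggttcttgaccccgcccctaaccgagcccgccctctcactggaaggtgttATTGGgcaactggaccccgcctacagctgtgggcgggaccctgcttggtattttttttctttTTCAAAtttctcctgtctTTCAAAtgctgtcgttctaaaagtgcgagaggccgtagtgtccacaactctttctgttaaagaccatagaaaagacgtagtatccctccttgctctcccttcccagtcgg
Cdc25c: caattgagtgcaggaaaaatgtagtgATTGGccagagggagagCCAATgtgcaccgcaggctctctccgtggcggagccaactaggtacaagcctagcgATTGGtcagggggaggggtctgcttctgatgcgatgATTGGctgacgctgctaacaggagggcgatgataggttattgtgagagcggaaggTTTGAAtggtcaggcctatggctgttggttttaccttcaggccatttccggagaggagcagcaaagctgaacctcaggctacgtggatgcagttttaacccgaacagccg
Anln: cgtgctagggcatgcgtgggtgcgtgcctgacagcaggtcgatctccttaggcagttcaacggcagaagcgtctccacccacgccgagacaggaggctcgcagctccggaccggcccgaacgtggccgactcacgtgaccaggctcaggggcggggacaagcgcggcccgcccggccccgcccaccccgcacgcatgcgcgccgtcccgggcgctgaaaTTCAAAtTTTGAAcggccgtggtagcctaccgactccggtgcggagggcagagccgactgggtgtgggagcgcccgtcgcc
Cdk1: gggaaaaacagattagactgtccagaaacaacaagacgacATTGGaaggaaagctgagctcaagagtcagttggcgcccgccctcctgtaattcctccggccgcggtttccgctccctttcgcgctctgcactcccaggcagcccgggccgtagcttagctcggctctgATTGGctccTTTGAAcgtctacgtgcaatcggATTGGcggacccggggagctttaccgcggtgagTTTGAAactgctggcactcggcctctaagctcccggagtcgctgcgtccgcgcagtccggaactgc

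Each of the 6 promoters held at least 1 CHR match. In Cdk1 a CHR match started 16 bases before the start, in Bub1b 4 bases before it, and in Cdc25c 60 bases before it. The promoter of Mki67 held 2 CHR matches and 4 CCAAT boxes, and the CHR match nearer the start shared its last base with a CCAAT box on the other strand. Neither Bub1b nor Anln had a CCAAT box in this window.

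Of the 49 genes, 41 had a promoter in the RefSeq table. A CHR match was found in 33 of the 41 (80.5%), against 13.6% of the 9759 promoters of genes tested and 19.7% of all 33469 promoters. A CCAAT box was found in 30 of the 41 (73.2%), against 37.9% of the promoters of genes tested and 37.5% of all promoters. Both stood together in 26 of the 41 (63.4%), against 5.62% of the promoters of genes tested. The CHR was found among genes of either direction. It was present in 21 of 25 promoters of lower genes (84%), 6 of 8 of higher genes (75%) and 5 of 7 of genes not past the test (71.4%). The CCAAT box was present in 20 of 25 promoters of lower genes (80%), 4 of 8 of higher genes (50%) and 5 of 7 of the others (71.4%). With so few genes these shares are a description, and a match of these letters is not a measured binding site.

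**Figure D1:**
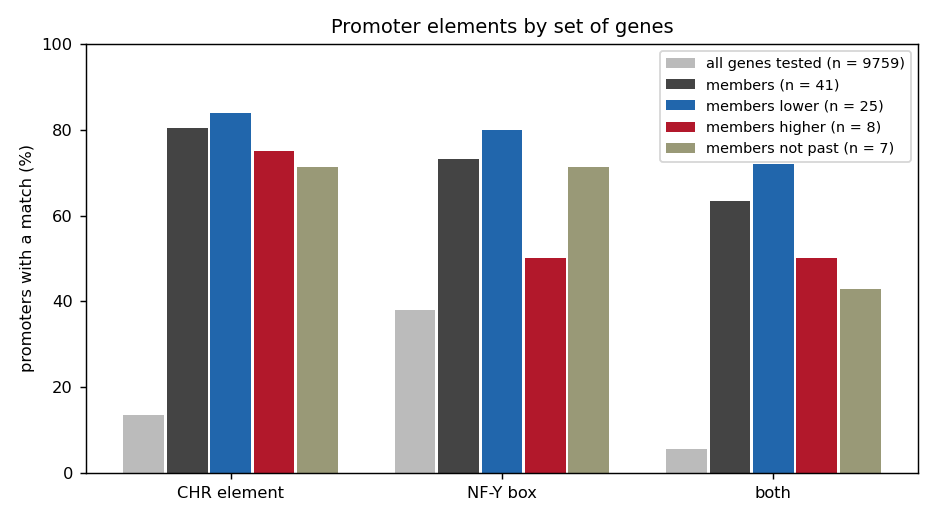
Share of promoters (percent, y axis) that held a CHR element, an NF-Y box (the CCAAT box), or both, for the genes tested and for the mitosis genes by their call. The CHR was found in 84% of promoters of lower genes and 75% of promoters of higher genes, against 13.6% of promoters of all genes tested.

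The mitosis genes took a smaller part of every STZ library. Of all counts, they made up 0.686%, 0.678% and 0.711% in the Control samples, in order of replicate number, and 0.577%, 0.575% and 0.582% in the STZ samples. The groups did not overlap, and the exact (Clopper-Pearson) 95% interval was 0.681% to 0.691% in Control replicate 1 and 0.573% to 0.581% in STZ replicate 1, for counting error only. This share amounts to scaling by library totals only, under which the median log2 fold change of all genes tested was -0.04. In bulk RNA, fewer cells in mitosis and less of these RNAs per cell cannot be told apart. Over the genes tested, the sum of the group means was 6843 CPM in Control and 5855 in STZ, a difference of -14.4%. Mki67 alone made up 16.8% of this net difference, Cdc20 9.94%, Top2a 9.31% and Smc4 7.89%, so no single gene carried it.

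**Figure D2:**
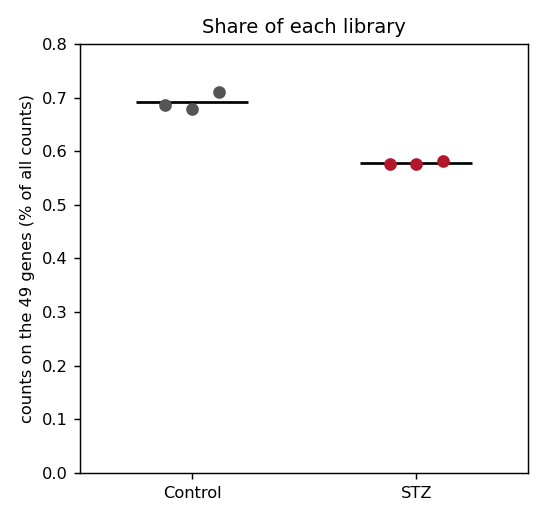
Counts on the 49 genes as a percentage of all counts (y axis, from 0) in each Control and STZ sample, with exact 95% binomial intervals, which are smaller than the points, and the group mean as a line. The 3 STZ samples lie between 0.575% and 0.582%, below the 3 Control samples at 0.678% to 0.711%.

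With edgeR's quasi-likelihood test, 31 of the 47 genes tested were lower in STZ than in Control, 9 were higher and 7 did not pass the threshold of an adjusted p under 0.05. Over all 11870 genes tested, 25.1% were lower and 25.9% higher at this threshold, against 66% and 19.1% of the 47 mitosis genes. The median log2 fold change was -0.18 for the 47 genes and -0.01 for all genes tested. The changes were small. With edgeR, 0 of the 47 passed the study's second threshold, an absolute log2 fold change over 1, also when only an unadjusted p under 0.05 was asked for, and with DESeq2 the count was 0 as well. Of all genes tested, 3.37% passed both thresholds. In all, 40 of 47 genes (85.1%) were called, against 50.9% of all genes tested. Among the 40, the absolute log2 fold change was 0.11 to 0.67, with a median of 0.27. Replicates were close, with a median coefficient of variation of 3.87% in Control and 3.16% in STZ. In 29 genes all STZ samples were below all Control samples, which held for 27.7% of all genes tested, and in 9 all were above, which held for 28.6%.

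**Figure D3:**
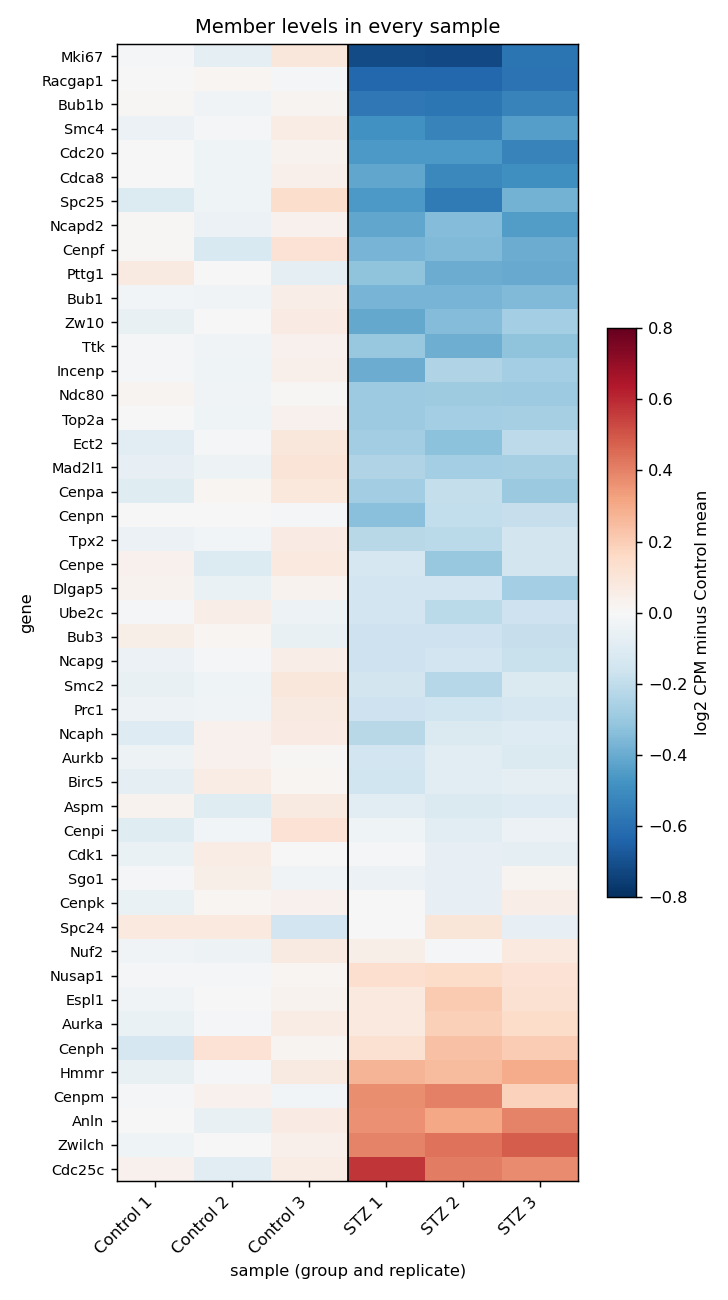
Colour scale of log2 CPM minus the gene's Control mean for 47 genes (rows, ordered by fold change) in the 6 samples (columns). The block of STZ columns is blue from Mki67 down to Aspm and red from Nusap1 to Cdc25c, and the 3 STZ samples resemble each other in nearly all rows.

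Cdc25b and Foxm1 were not tested. Cdc25b, a phosphatase that activates Cdk1, had 1 to 6 counts per sample, and Foxm1, a transcription factor of G2 and mitosis genes, had 0 to 4. With so few counts no difference was detectable for either gene, whereas the lowest count of any other member in any sample was 285. The cause was not tested, as for the low counts of Krt18.

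Of the 3 genes of mitotic entry that were tested, 2 were higher and Cdk1 did not pass the test. Cdc25c, the phosphatase that switches on Cdk1 at the G2 to M transition, was the member with the largest rise. It had 31.7, 29.1 and 32.3 CPM in Control and 46.1, 41.2 and 40.4 CPM in STZ. Every STZ sample was above every Control sample, with a log2 fold change of 0.45 (standard error, SE, 0.07, adjusted p = 4.9e-07). Aurka, the kinase of centrosomes and spindle poles, had 87.4, 89.8 and 94.4 CPM in Control and 95.6, 103 and 100 CPM in STZ, a log2 fold change of 0.14 (adjusted p = 0.017). The Aurka groups were adjacent rather than far apart. Cdk1, the kinase that drives mitosis, had 235, 254 and 243 CPM in Control and 242, 233 and 232 CPM in STZ, and the groups overlapped. Its log2 fold change was -0.05 (SE 0.04, adjusted p = 0.30), and the approximate 95% interval ran from -0.13 to 0.03.

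**Figure D4:**
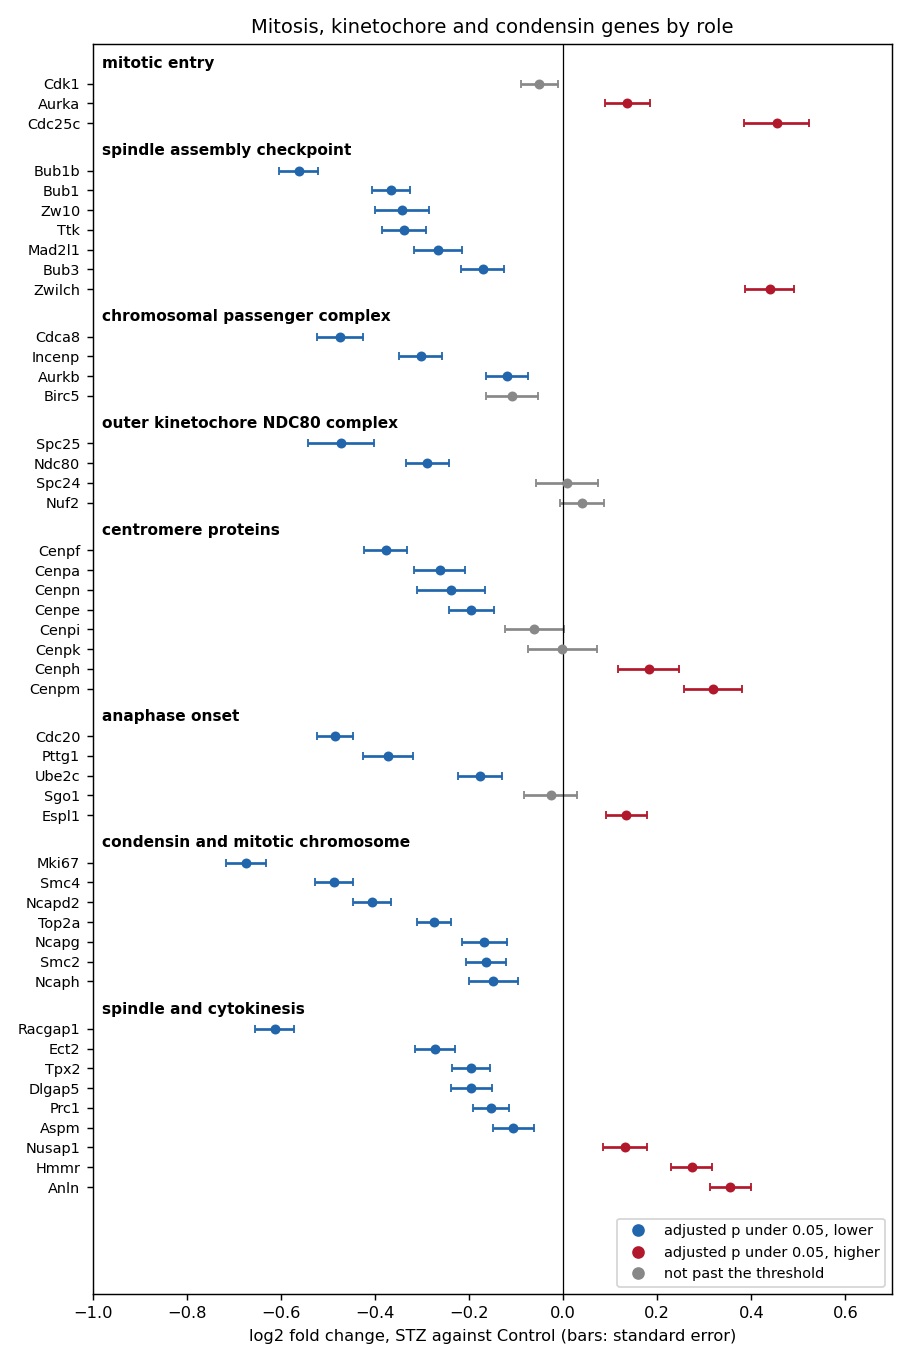
Log2 fold change of STZ against Control (x axis) with its standard error for the 47 genes tested, grouped by role. All 7 condensin and mitotic chromosome genes lie below 0, while Cdc25c, Zwilch, Anln, Cenpm and Hmmr lie at 0.27 or above.

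Of the 7 genes of the spindle assembly checkpoint, 6 were lower and 1 was higher. Bub1b, which encodes the checkpoint protein BubR1, had 177, 173 and 180 CPM in Control and 119, 118 and 122 CPM in STZ. The gap between the groups was many times the spread within them, and the log2 fold change was -0.56 (SE 0.04, adjusted p = 5.8e-15). The kinase genes Bub1 and Ttk (which encodes Mps1) were lower with log2 fold changes of -0.37 and -0.34, and the Cdc20 inhibitor Mad2l1 with -0.27. Bub3, which brings Bub1 and BubR1 to the kinetochore, was lower by a smaller amount, with a log2 fold change of -0.17 (adjusted p = 0.0016). Zw10 and Zwilch encode subunits of one complex, RZZ, which recruits dynein and checkpoint proteins to kinetochores, and they moved in opposite directions. Zw10 had 58.4, 60.7 and 63.6 CPM in Control and 45.9, 47.9 and 50.5 CPM in STZ, a log2 fold change of -0.34 (SE 0.06, adjusted p = 3.4e-06). Zwilch had 59.6, 61 and 62.9 CPM in Control and 80.5, 82.7 and 85.5 CPM in STZ, a log2 fold change of 0.44 (SE 0.05, adjusted p = 1.6e-09). For both genes the groups did not overlap. In the GRCr8 annotation the span of Zwilch overlaps that of Lctl, which was not among the genes tested.

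The chromosomal passenger complex corrects faulty kinetochore attachments through the kinase Aurkb. Of its 4 genes, 3 were lower and Birc5 did not pass the test. Cdca8, which encodes borealin, had 99.7, 97.4 and 103 CPM in Control and 74.7, 69.9 and 70.9 CPM in STZ. The groups were well apart, with a log2 fold change of -0.48 (SE 0.05, adjusted p = 5.7e-11). The scaffold gene Incenp had a log2 fold change of -0.30 (adjusted p = 3.5e-07). Aurkb itself had 119, 126 and 123 CPM in Control and 110, 116 and 113 CPM in STZ, a log2 fold change of only -0.12 (adjusted p = 0.023). Birc5, which encodes survivin, had a log2 fold change of -0.11 (SE 0.05, adjusted p = 0.092), and its groups overlapped. The values of the 4 subunit genes therefore ranged from -0.48 to -0.11.

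The NDC80 complex is the main microtubule binder of the outer kinetochore, made of a dimer of Ndc80 and Nuf2 and a dimer of Spc24 and Spc25. One gene of each dimer was lower and the other did not pass the test. Spc25 had 41.8, 44.1 and 49.8 CPM in Control and 32.7, 30.4 and 34.7 CPM in STZ, a log2 fold change of -0.47 (SE 0.07, adjusted p = 2.6e-07). Spc24 had 47.1, 47.2 and 40.2 CPM in Control and 44.7, 47.8 and 42.8 CPM in STZ, with overlapping groups and a log2 fold change of 0.01 (SE 0.07, adjusted p = 0.93). The 95% interval of Spc24, -0.12 to 0.14, did not reach the value of its partner. Ndc80 had 112, 109 and 111 CPM in Control and 90.5, 91 and 90.3 CPM in STZ, a log2 fold change of -0.29 (SE 0.05, adjusted p = 9.6e-07). Nuf2 had 99, 98.3 and 106 CPM in Control and 105, 100 and 107 CPM in STZ, a log2 fold change of 0.04 (SE 0.05, adjusted p = 0.50), and its groups overlapped.

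Of the 8 genes of centromere proteins, 4 were lower, 2 were higher and 2 did not pass the test. Cenpf, a large protein of the outer kinetochore and nuclear envelope, had 228, 208 and 245 CPM in Control and 176, 178 and 172 CPM in STZ, a log2 fold change of -0.38 (SE 0.05, adjusted p = 2.4e-09). Cenpa, the histone variant that marks the centromere, and Cenpe, a kinetochore motor, had log2 fold changes of -0.26 (adjusted p = 8.1e-05) and -0.20 (adjusted p = 7.2e-04). The other members encode subunits of the inner kinetochore network that sits on Cenpa nucleosomes. Among these, Cenpm had 43.1, 44.4 and 42.8 CPM in Control and 56.1, 57.4 and 49.4 CPM in STZ. All STZ samples were above Control, replicate 3 by the smallest margin, and the log2 fold change was 0.32 (SE 0.06, adjusted p = 3.5e-05). Cenph was higher with a log2 fold change of 0.18 (adjusted p = 0.018) and Cenpn lower with -0.24 (adjusted p = 0.0052). Cenpi and Cenpk had log2 fold changes of -0.06 and -0.0018 (adjusted p = 0.44 and 0.99). The 5 inner kinetochore genes thus had values in both directions.

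Of the 5 genes of anaphase onset, 3 were lower, 1 was higher and 1 did not pass the test. Cdc20, the activator of the anaphase-promoting complex, had 346, 336 and 351 CPM in Control and 250, 250 and 237 CPM in STZ. The groups were far apart for their spread, and the log2 fold change was -0.49 (SE 0.04, adjusted p = 2.8e-14). Pttg1, which encodes securin, had a log2 fold change of -0.37 (adjusted p = 1.1e-07). Ube2c, the ubiquitin-conjugating enzyme of the same complex, had one of -0.18 (adjusted p = 0.0013). Espl1 encodes separase, the protease that securin inhibits, and it was higher. It had 144, 147 and 150 CPM in Control and 155, 170 and 159 CPM in STZ, a log2 fold change of 0.13 (adjusted p = 0.0086). Sgo1, the protector of centromeric cohesin, had a log2 fold change of -0.03 (adjusted p = 0.72) and overlapping groups.

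All 7 genes of condensin and the mitotic chromosome were lower. Mki67, which encodes the proliferation marker Ki-67 that coats mitotic chromosomes, had the largest fall of all members. It had 440, 422 and 473 CPM in Control and 271, 269 and 296 CPM in STZ, a log2 fold change of -0.67 (SE 0.04, adjusted p = 9.9e-18). This is a difference of -37.3%, at percentile 3.14 of the fold changes of all genes tested. Smc4 had 263, 269 and 284 CPM in Control and 195, 188 and 200 CPM in STZ, a log2 fold change of -0.49 (SE 0.04, adjusted p = 1.4e-13). Its span holds the microRNA genes Mir15b and Mir16. Smc4 and Smc2 are the paired ATPases of condensin, and the log2 fold change of Smc2 was -0.16 (SE 0.04, adjusted p = 0.0013). Of the subunits of condensin I that are not ATPases, Ncapd2 had a log2 fold change of -0.41 (SE 0.04), Ncapg one of -0.17 (SE 0.05) and Ncaph one of -0.15 (SE 0.05). Top2a, the topoisomerase that untangles sister chromatids, had 531, 517 and 542 CPM in Control and 433, 440 and 441 CPM in STZ, a log2 fold change of -0.28 (SE 0.04, adjusted p = 1.6e-08). In 6 of the 7 genes the groups did not overlap, the exception being Ncaph.

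Of the 9 genes of the spindle and cytokinesis, 6 were lower and 3 were higher. Racgap1, a subunit of centralspindlin at the spindle midzone, had 194, 197 and 193 CPM in Control and 126, 126 and 129 CPM in STZ. The spread within each group was small against the gap between them, and the log2 fold change was -0.61 (SE 0.04, adjusted p = 2.0e-16). Ect2, the exchange factor that Racgap1 recruits to activate RhoA at the cleavage furrow, had a log2 fold change of -0.27 (adjusted p = 1.0e-06). Anln, which encodes anillin, the scaffold of the contractile ring, moved the other way. It had 134, 128 and 140 CPM in Control and 173, 166 and 176 CPM in STZ, a log2 fold change of 0.35 (SE 0.04, adjusted p = 4.9e-09). Hmmr, a spindle protein and hyaluronan receptor, had 120, 123 and 131 CPM in Control and 151, 149 and 153 CPM in STZ, a log2 fold change of 0.27 (SE 0.04, adjusted p = 1.4e-06). In Anln and Hmmr all STZ samples were above all Control samples. The microtubule-associated protein genes Tpx2, Dlgap5, Prc1 and Aspm had log2 fold changes of -0.20, -0.20, -0.15 and -0.11, and Nusap1 one of 0.13 (adjusted p = 0.016).

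Pairs of genes with unlike changes were compared as ratios of raw counts within one library, which no scaling affects. These pairs were chosen after their values were seen, and so have no test. The ratio of Zwilch to Zw10 was 1.02, 1.004 and 0.988 in Control and 1.76, 1.73 and 1.69 in STZ. The ratio of Anln to Racgap1 was 0.689, 0.652 and 0.728 in Control and 1.37, 1.32 and 1.36 in STZ. The ratio of Nuf2 to Ndc80 was 0.882, 0.905 and 0.953 in Control and 1.16, 1.10 and 1.18 in STZ. In these 3 pairs the gene named first had fewer or about as many counts in Control, and more in STZ. The ratio of Spc24 to Spc25 varied more, from 0.808 to 1.13 in Control and from 1.23 to 1.57 in STZ. That of Aurka to Aurkb ranged from 0.715 to 0.765 in Control and from 0.867 to 0.894 in STZ, and that of Cenpm to Cenpn from 1.34 to 1.38 and from 1.75 to 2.21. In none of the 6 pairs did the groups overlap.

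**Figure D5:**
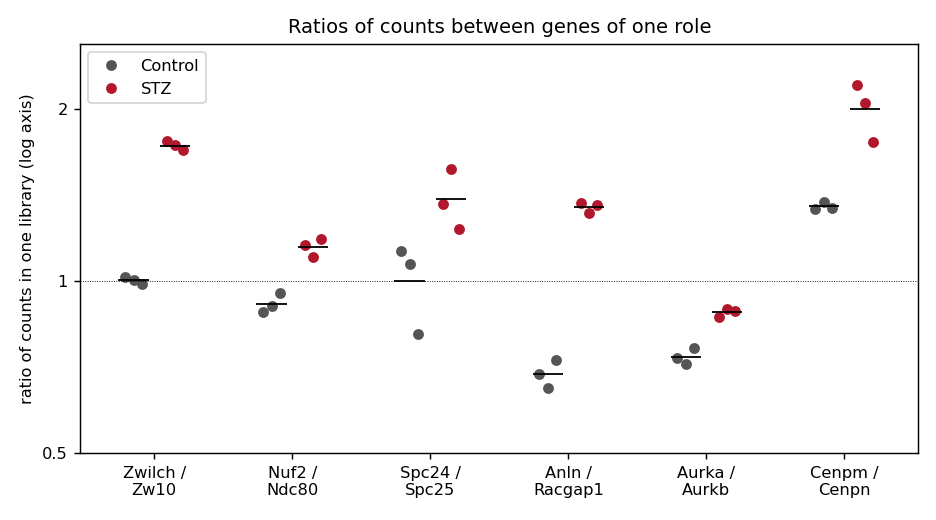
Ratio of raw counts of the paired genes within each library (y axis, log scale), for 3 Control and 3 STZ samples, with lines at the means. The ratio of Zwilch to Zw10 is close to 1 in Control and 1.69 to 1.76 in STZ, and the groups do not overlap in any of the 6 pairs. The pairs were chosen after their values were seen.

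The calls of 7 genes with small changes were lost in at least 1 of the 6 fits that left out a sample. Of the 40 genes called, the other 33 stayed past the threshold whichever of the 6 samples was left out. Aspm lost its call in 5 of the 6 fits that left out a sample, all but the one without Control replicate 2, with an adjusted p of up to 0.22 (without Control replicate 3). Cenph lost it without Control replicate 1, STZ replicate 2 or STZ replicate 3, with an adjusted p of up to 0.16. Ncaph lost it without Control replicate 2, Control replicate 3 or STZ replicate 1 (up to 0.12), Aurkb without Control replicate 2, STZ replicate 1 or STZ replicate 3 (up to 0.11), and Aurka without Control replicate 1, Control replicate 2 or STZ replicate 2 (up to 0.087). Espl1 lost it without STZ replicate 2 (adjusted p = 0.076) and Cenpn without STZ replicate 1 (adjusted p = 0.051). Birc5 passed without Control replicate 1 (adjusted p = 0.038), with scaling by library totals only (0.026) and with upper quartile scaling (0.045). When libraries were scaled by their totals only, Aurka, Cenph and Nusap1 did not pass (adjusted p = 0.070, 0.051 and 0.072), and 32 genes were lower and 6 higher.

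Whether strand was used in counting is not given, which limits how well reads of overlapping genes can be told apart. In the GRCr8 annotation the span of 11 of the 49 genes overlaps a protein-coding gene, among them 5 of the 9 higher genes (Anln, Aurka, Cdc25c, Nusap1 and Zwilch) and 4 of the 31 lower genes (Cenpn, Ncapg, Smc2 and Spc25). Of the genes overlapping a higher member, 3 were tested. Fam210b, beside Aurka, had a log2 fold change of -1.17, Ndufaf1, beside Nusap1, one of -0.05 (adjusted p = 0.71), and Matcap2, beside Anln and listed in the table under its RefSeq synonym AABR07069466.1, one of -0.51 at a mean of 5.05 CPM in Control and 3.48 CPM in STZ. The genes overlapping Cdc25c and Zwilch were not among those tested. Of the genes overlapping a lower member, Lcorl, beside Ncapg, was itself lower with a log2 fold change of -0.42 (adjusted p = 1.6e-04), and Cmc2, beside Cenpn, had one of -0.15 (adjusted p = 0.076). The part of these overlaps in the results was not tested.

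In the lists of other genes, 58 of 124 tested were lower and 14 higher, against 25.1% and 25.9% of all genes tested. Of 26 other kinetochore and centromere genes tested, 13 were lower and 2 were higher, with a median log2 fold change of -0.18. Knl1, the scaffold on which Bub1 and BubR1 assemble, had the smallest p of these, with 113 CPM in Control, 78.2 CPM in STZ and a log2 fold change of -0.53 (SE 0.05). Of 16 genes of condensin II and cohesin, 10 were lower and 6 did not pass the test, with a median of -0.23. Stag1, a subunit of cohesin, had the smallest p of these, with 71.6 CPM in Control, 41.8 CPM in STZ and a log2 fold change of -0.78 (SE 0.06). Of 15 genes of the anaphase-promoting complex and its partners, 9 were lower and 1 was higher, with a median of -0.16, and Anapc1, its largest scaffold subunit, had a log2 fold change of -0.40 (SE 0.04).

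Of 24 other genes of the spindle and cytokinesis, 12 were lower and 4 were higher, with a median of -0.16. They held the widest range. Ckap2, a microtubule-associated protein, had 115 CPM in Control and 222 CPM in STZ, a log2 fold change of 0.95 (SE 0.04). Pimreg had 47.4 CPM in Control and 22.5 CPM in STZ, a log2 fold change of -1.08 (SE 0.07), and was the only gene of these lists past both thresholds. Of 8 regulators of Cdk1, 2 were lower and 2 were higher, or 25% each, close to the shares of all genes tested. Wee1, the kinase that holds Cdk1 inactive, had the smallest p of these and a log2 fold change of -0.34 (SE 0.07).

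Genes of the MuvB and DREAM complexes, which control CHR promoters, were mixed, with 4 of 10 lower and 4 higher and a median of -0.06. The pocket protein genes Rbl1 and Rbl2, whose products join MuvB in the repressing form, were lower with log2 fold changes of -0.53 and -0.43. Mybl2, which encodes B-Myb of the activating form, was higher with 0.27. Of the others in this list, Lin37, Lin52 and Lin54 were higher with 0.40, 0.27 and 0.19. Rbbp4 and Tfdp1 were lower with -0.32 and -0.23, while E2f4 (0.03) and Lin9 (-0.15) did not pass the test. Of 25 DNA replication genes, 8 were lower, 1 was higher and 16 did not pass, with a median of -0.03. Pcna, the sliding clamp of replication, had the smallest p of these, and its log2 fold change was -0.73 (SE 0.04). The share of lower genes was 32% among replication genes, 25.1% among all genes tested and 66% among the mitosis genes, and these differences were not tested.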

How the data were processed

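RNA from 3 Control and 3 STZ samples was sequenced. The authors made TruSeq stranded mRNA libraries, used STAR 2.7.10a to map 100-bp single-end reads to Rnor6, a rat genome build, counted uniquely mapped reads with featureCounts, and deposited raw counts per gene. The strand setting and annotation release are not given in the sources used here.

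From these counts, TMM scaling, filterByExpr and the quasi-likelihood test of edgeR 4.0.16 (R 4.3.3) were computed over all 11870 genes that passed the filter, with Benjamini-Hochberg adjustment. CPM are counts per 1000000 counts of a library, scaled by TMM. A standard error (SE) is the size of the log2 fold change over the root of its F statistic, and approximate intervals are 1.96 SE to either side. With 3 samples against 3, single-gene permutation tests cannot pass 0.05 and are not given.

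Alternatives were 3 filters, 3 scalings, 4 tests (with DESeq2 1.42.0 and limma 3.58.1), glmTreat at 0.25, the replicate block, and each sample left out. The tests were tested on simulated data. The members and lists were chosen with earlier results of these data known. Values in every sample are given for the member with the smallest p in each role, the 5 largest falls and the 5 largest rises. Other members are shown too, as their groups need. From the lists of other genes, those with the smallest p or past both thresholds are named. The MuvB and DREAM genes other than Rbl1 were added after their values were seen. The lists hold 131 genes, of which Cenps, Cenpx, Anapc11, Cdc26, Knstrm, Haus2 and Cks2 were not listed in the table.

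Control and STZ samples share replicate numbers. Across 9239 genes with a mean over 10 CPM, deviations of same-numbered samples from their group means had correlations of 0.0289, -0.0227 and 0.138. Samples with unlike numbers had correlations of -0.138 to 0.104. Deviations within a group of 3 are tied to each other, so these values cannot settle whether same-numbered samples were handled together.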

Additional observations from a re-analysis of the deposited data

How the results depend on the processing

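The counts of 31 lower and 9 higher genes stayed within 1.5 times under 17 of 18 alternatives. With glmTreat, which asks for an absolute log2 fold change above 0.25, 12 genes were lower and 3 higher, and in the lists of other genes 24 were lower and 2 higher. This follows from the higher bar. With each sample left out in turn, 27 to 31 were lower and 6 to 9 higher, and the median log2 fold change was -0.19 to -0.16. The median of the members, -0.18, was -0.21 with library size only, where the median of all genes was -0.04. Of 846 refits of single genes, 784 kept direction and side of the threshold, 50 were weaker, 3 stronger and 9 reversed. Of the 40 genes called, 32 kept their call in every setting other than glmTreat. Reversals concerned genes near 0 that passed in no setting. Spc24 was -0.0252 under library size only, -0.0107 under the upper quartile, and -0.0702 to 0.0481 when a sample was left out. Cenpk was 0.00152 under the filter of 10 counts in each sample and -0.0304 to 0.0280 when a sample was left out. Cenpi was -0.109 to 0.00363 when a sample was left out. With the replicate block, 31 genes were lower and 9 higher, and no call of a member changed. Low counts, of untested cause, limit what can be said of Cdc25b and Foxm1. With no filter they had adjusted p-values of 0.66 and 0.73 from edgeR's test.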
